A study of Homo sapiens with 6 samples.

Results

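The BCL2 family decides whether a cell under stress opens the outer membrane of its mitochondria and dies by apoptosis. Anti-apoptotic members such as BCL2 and MCL1 bind and hold the effectors BAX and BAK, which otherwise form pores that release cytochrome c and start the caspases. BH3-only proteins, named for the single homology region they share with the family, sense damage or missing survival signals and tip this balance: BIM, PUMA, NOXA, BID and BAD are the products of *BCL2L11*, *BBC3*, *PMAIP1*, *BID* and *BAD*. In hepatocytes, cleaved BID is known as the link between death receptors at the cell surface and the mitochondria.

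The values here are those of 10 listed genes, *BCL2L11* with *BCL2*, *BCL2L1*, *MCL1*, *BAX*, *BAK1*, *BID*, *BAD*, *BBC3* and *PMAIP1*, on an exon array of HepG2 cells. A gene was taken when a transcript cluster, the array's unit for a whole gene, carried its symbol and no other. This held for 7 of the 10 genes, out of 12676 genes with such a cluster. *MCL1* was measured only by a cluster that also carries *ADAMTSL4* and *ADAMTSL4-AS1*. No cluster carried the symbol of *BCL2L1* or *BAX*, alone or with another, and these genes were not analysed here. The rule used no treatment difference, although the genes were listed with earlier results of these data known, and the RNA-seq data of the study were not analysed here.

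HepG2 is a human liver tumour line (hepatoblastoma in the labels) used as a model of hepatocytes. In both groups the serum of the medium was replaced by lipoprotein deficient serum. The 3 control samples were given no drug. The 3 treated samples were given atorvastatin at 10 µM, a statin that inhibits the rate-limiting step of cholesterol synthesis, for 24 h. The samples were triplicate wells of 1 cell line, so the only spread that enters the *p*-values is that among wells, which may be technical. In the limma tests below, the spread of each gene is also drawn towards that shared by all clusters. Array medians lay between 6.66 and 6.72 on the log2 scale, and pairs of arrays correlated with Pearson coefficients of 0.991 to 0.997. Of 8 hepatocyte marker genes, 5 had a cluster and mean log2 values of 9.56 to 12.3, whereas both measured leukocyte markers had 2.67 and 3.66. The 4 endothelial markers did not exceed 5.60, and the 5 fibroblast markers lay between 3.54 and 7.19. Averaged over each marker list, the ranges of the control and the treated arrays overlapped for all 4 cell types.

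Treated and control arrays were compared with limma over 12797 clusters with 1 symbol, with replicate number entered as a block after the paired test of the study's methods. No difference between atorvastatin and control cells was detected in any of the 7 family genes. After Benjamini-Hochberg correction 0 of 7 were called, where the share over all clusters was also 0%. At an unadjusted *p* under 0.05 the count was again 0 of 7, beside 0.992% of all clusters. It was also 0 with the methods' paired *t*-test (316 of 12797 clusters) and with an unpaired one (441 of 12797). Without the block, 0 of 7 were called after correction, beside 0.0313% of clusters. For an unadjusted *p* under 0.05 this fit gave 0 of 7, beside 271 of 12797 clusters. With 7 genes, a count of 0 does not set the family apart from these shares. No member had all its treated arrays on one side of all its control arrays, a pattern seen in 7.25% of clusters, and no member reached a mean change of 1.2-fold, which 1.23% of clusters did. Mean log2 differences (atorvastatin minus control) ran from −0.03 for *BAD* to 0.11 for *BAK1*, with a median of 0.03 beside 0.01 over all clusters. Means were higher in 6 of the 7 genes and lower in 1, against 55.8% higher over all clusters. Most of the 7 signs changed in some fits with a replicate or array left out. The median size of the difference, regardless of sign, was 0.03 in the family and 0.05 over all clusters. Each value averages the RNA of a whole well, so a shift in a part of the cells and a shift per cell cannot be told apart.

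The same arrays carried visible differences in genes of lipid synthesis. Of 10 genes listed as a check of the statin response, 8 were measured, and all 8 had their lowest treated array above their highest control array (4.57% of clusters), with log2 differences of 0.44 to 0.90. *ACSS2*, an acetyl-CoA synthetase gene, was 1.86-fold higher (unadjusted *p* = 4.22e-05, adjusted *p* = 0.535 from limma with the block, and adjusted *p* = 0.016 without it). This list was written with earlier results of these data known. After correction, 0 of these 8 genes were called with the block (0% of all clusters) and 4 without it (0.0313%). The largest upper or lower 95% confidence limit of any family gene was 0.37 on the log2 scale, below the smallest of these 8 differences. The interval of that smallest difference itself started at 0.17, so it overlapped those of the family genes.

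**Figure D1:**
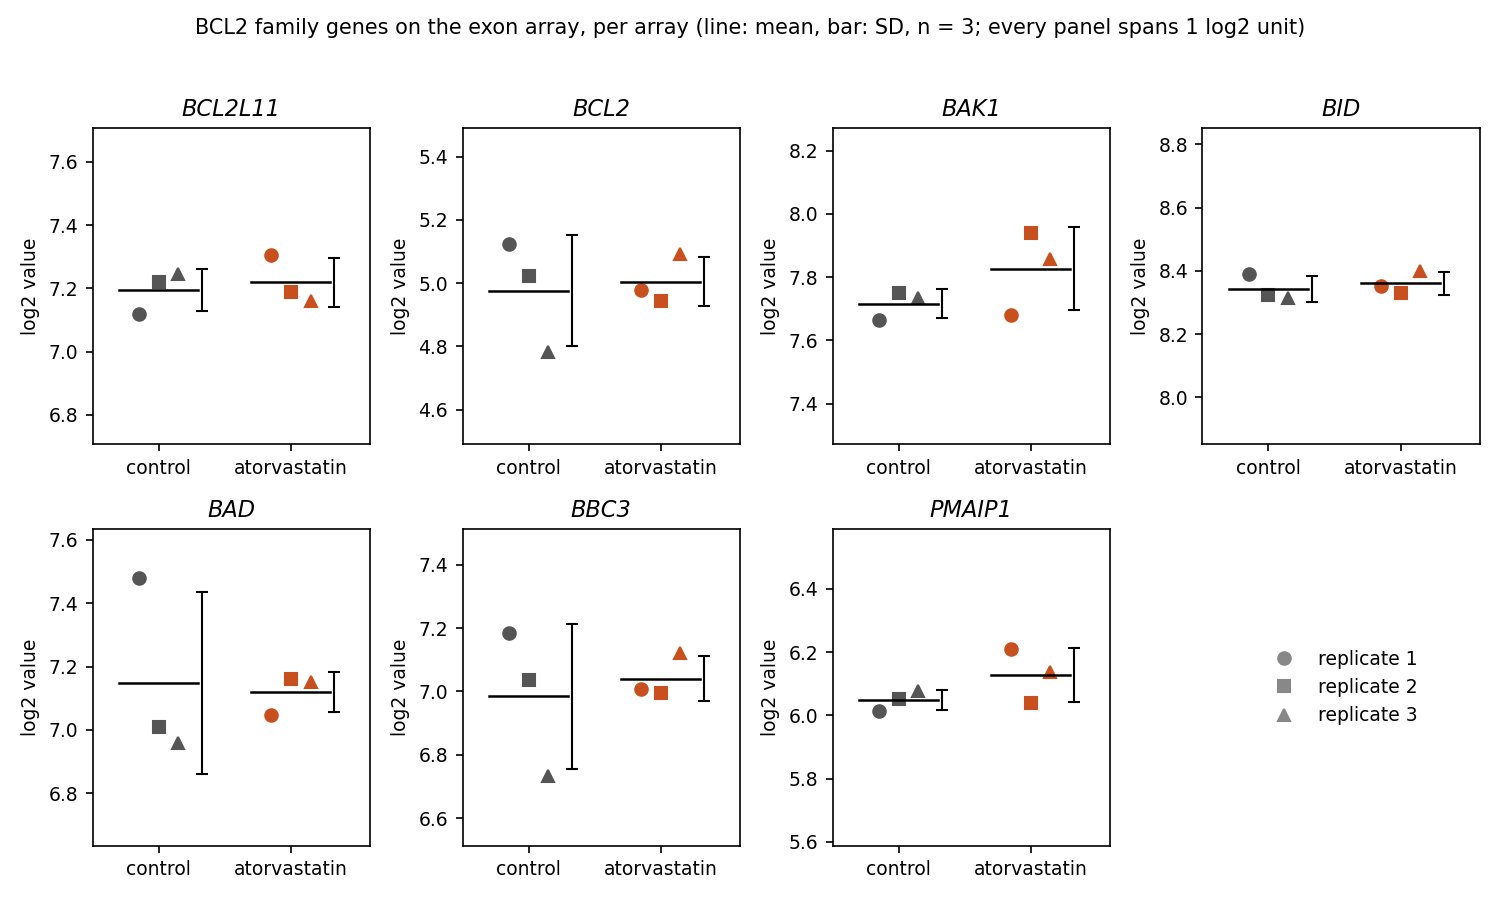
Log2 value of each family gene on each array (y axis, 1 log2 unit in every panel) in control and atorvastatin cells (x axis). Symbols mark the replicate number, horizontal lines the group means and bars the SD of 3 arrays. Control and treated arrays overlap in all 7 panels, and the control arrays of *BAD*, *BBC3* and *BCL2* are the most spread.

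*BCL2L11* encodes BIM, a BH3-only protein that can bind every anti-apoptotic member of the family. Its log2 value was 7.12, 7.22 and 7.25 in control replicates 1, 2 and 3, and 7.31, 7.19 and 7.16 in treated replicates 1, 2 and 3. The highest of the 6 arrays was treated replicate 1 and the lowest was control replicate 1, while the other treated arrays lay below the other controls. Means were 7.20 ± 0.0673 (SD, n = 3) for control and 7.22 ± 0.0766 (SD, n = 3) for atorvastatin. The fold change was 1.02, with a 95% confidence interval of 0.859 to 1.2 (limma with the block, adjusted *p* = 1). The two-sided exact permutation *p* was 0.7, and 0.1 is the smallest value possible for 3 against 3 arrays. Without the block the interval was 0.905- to 1.14-fold. Read by replicate number, the treated minus control difference was 0.19, −0.03 and −0.09, so the sign of the mean came from replicate 1, and without replicate 1 the log2 difference was −0.06. The value is an average over the core probe sets of the gene and does not separate its splice variants.

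The spread of *BCL2L11* between arrays of a group was small. Its SD pooled over both groups was 0.0721, and 25.2% of tested clusters had a smaller one. Across the 6 arrays, 3 clusters with a mean log2 value of at least 6 followed it most closely: *LMBR1*, which encodes a membrane protein (Pearson *r* = 0.998), *MMUT*, the gene of methylmalonyl-CoA mutase (*r* = 0.998), and *SMARCC1*, a subunit gene of the SWI/SNF chromatin remodelling complex (*r* = 0.997). High coefficients were not rare over these 6 arrays, as 324 of 8212 clusters (3.95%) had a coefficient of at least 0.9. The 3 genes were picked for this likeness, so they too were lowest in control replicate 1 and highest in treated replicate 1. They had treated minus control differences of 0.05, 0.08 and 0.03.

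*BBC3* encodes PUMA and *PMAIP1* encodes NOXA, both BH3-only proteins. *BBC3* had log2 values of 7.18, 7.04 and 6.73 in the control replicates and 7.01, 6.99 and 7.12 in the treated replicates. The treated arrays lay inside the range of the controls, and control replicate 3 was the lowest of the 6 arrays. The fold change was 1.04 (95% confidence interval 0.837 to 1.29), and the log2 difference was −0.11 without replicate 3. *PMAIP1* had 6.02, 6.05 and 6.08 in control and 6.21, 6.04 and 6.14 in treated cells. Both treated replicates 1 and 3 were above all controls, but treated replicate 2 was not, and the level lay close to 6, under which clusters were taken as dim here. The fold change of *PMAIP1* was 1.06 (0.901 to 1.24), with *p* = 0.3 in the exact two-sided permutation test.

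*BID* encodes the protein that caspase 8 cleaves to carry a death receptor signal to mitochondria. As deposited, it had the lowest pooled SD of the 7 genes, with log2 values of 8.39, 8.32 and 8.31 in control and 8.35, 8.33 and 8.40 in treated cells. All 6 arrays lay within 0.1 log2 units, and 5.16% of tested clusters had a smaller pooled SD than its 0.0381. After quantile normalization, which gives all arrays 1 distribution, its pooled SD was 0.0763, above the 0.0637 of *BCL2* and the 0.0704 of *BCL2L11*. The fold change was 1.01, with an interval of 0.867 to 1.18 with the block and 0.915 to 1.12 without it.

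*BAD* encodes a BH3-only protein that survival kinases keep in check by phosphorylation. Its own cluster had 7.48, 7.01 and 6.96 in control and 7.05, 7.16 and 7.15 in treated cells. Control replicate 1 stood above the other 5 arrays, and the pooled SD of 0.208 exceeded that of 90.2% of tested clusters. The log2 difference was −0.03 (95% confidence interval −0.37 to 0.31) and turned to 0.17 without replicate 1. A second cluster carries *BAD* together with *GPR137*, a G protein-coupled receptor gene, and its value cannot be assigned to either. It had 8.02, 7.93 and 7.82 in control and 7.88, 8.04 and 7.99 in treated cells, or a log2 difference of 0.05 (−0.21 to 0.31). The clusters thus had opposite signs, each well within its interval.

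*BAK1* encodes BAK, the effector that sits in the outer mitochondrial membrane. Its log2 values were 7.67, 7.75 and 7.73 in control and 7.68, 7.94 and 7.86 in treated cells. Treated replicates 2 and 3 were above every control array, while treated replicate 1 fell among them. The mean difference was the largest of the family, 1.08-fold with a 95% confidence interval of 0.922 to 1.26. Read by replicate number, a pairing that the arrays cannot decide, the difference was 0.02, 0.19 and 0.13. It did not pass any test (unadjusted *p* = 0.288 and adjusted *p* = 1 from limma with the block, exact two-sided permutation *p* = 0.3). Over all clusters, 82.9% had a smaller mean difference.

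*BCL2* encodes the founding anti-apoptotic member. It was the dimmest of the 7, with 5.12, 5.02 and 4.78 in control and 4.98, 4.94 and 5.09 in treated cells, and 20% of tested clusters were dimmer. The treated arrays lay within the range of the controls, and the fold change was 1.02 (0.835 to 1.24). The log2 difference was −0.11 without replicate 3. *MCL1* encodes a short-lived anti-apoptotic protein. The cluster it shares with *ADAMTSL4* and its antisense gene had 8.75, 8.96 and 9.12 in control and 9.05, 8.97 and 8.87 in treated cells. Here too the treated arrays fell inside the control range, with a log2 difference of 0.02 (−0.30 to 0.34) and an adjusted *p* of 1 over all 16634 clusters from limma.

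**Figure D2:**
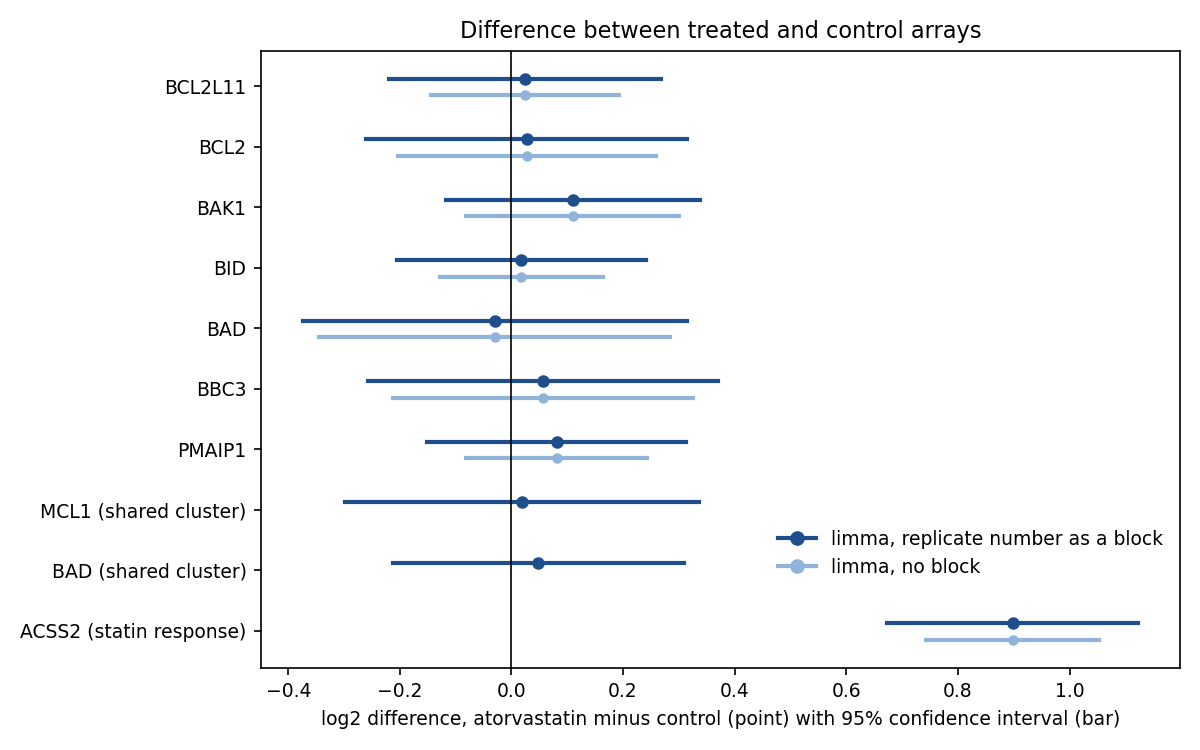
Mean log2 difference between atorvastatin and control arrays (x axis, points) with the 95% confidence interval from limma (bars), with the replicate number as a block (dark) and without it (light), for each family gene, the 2 shared clusters (with the block only) and *ACSS2*. Every family interval includes 0 and the longest reach is that of *BAD* to −0.37, whereas the interval of *ACSS2* starts at 0.67.

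The arrays differed in the spread of their values, and some members were highest on the arrays with the smallest spread. The interquartile range over all clusters was 2.60 on control replicate 1 and 2.64 on treated replicate 3, against 2.79 to 2.90 on the other 4 arrays. On a narrow array dim clusters read higher: control replicate 1 was the highest of the 3 controls in 76% of clusters with a mean log2 value under 6, and in 38.1% of the brighter ones. *BCL2*, the dim member, was highest on these narrow arrays (5.12 and 5.09) and lowest on control replicate 3, which had the widest range. *BBC3* followed the same order, with 7.18 and 7.12 on the narrow arrays and 6.73 on the widest, and the pair had a Pearson *r* of 0.989 over the 6 arrays. *BID*, the brightest member, had this order too, with 8.39 and 8.40 on the narrow arrays and 8.31 on the widest. *BCL2L11* went the other way and was lowest on the narrow arrays (7.12 and 7.16). Whether these orders come from array spread was not tested. After quantile normalization the pooled SD of *BCL2* was 0.0637 in place of 0.136. That of *BID* went the other way, to 0.0763 from 0.0381, and so did that of *PMAIP1*, to 0.101 from 0.0645. The pooled SD of the other 4 members changed little, with 0.164 in place of 0.170 for *BBC3* and 0.210 in place of 0.208 for *BAD*. The treatment differences moved little, to 0.01 for *BCL2*, 0.04 for *BBC3*, −0.05 for *BAD* and 0.02 for *BCL2L11*.

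Between members, *BCL2L11* and *PMAIP1* tended to be high on the same arrays (*r* = 0.673, and 0.952 after quantile normalization), and *BCL2L11* and *BAD* ran opposite (*r* = −0.793 and −0.81). These coefficients rest on 6 arrays that share depth of signal and scaling, 21 pairs were computed, and they are given as a description. The part of array spread in them was not tested.

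**Figure D3:**
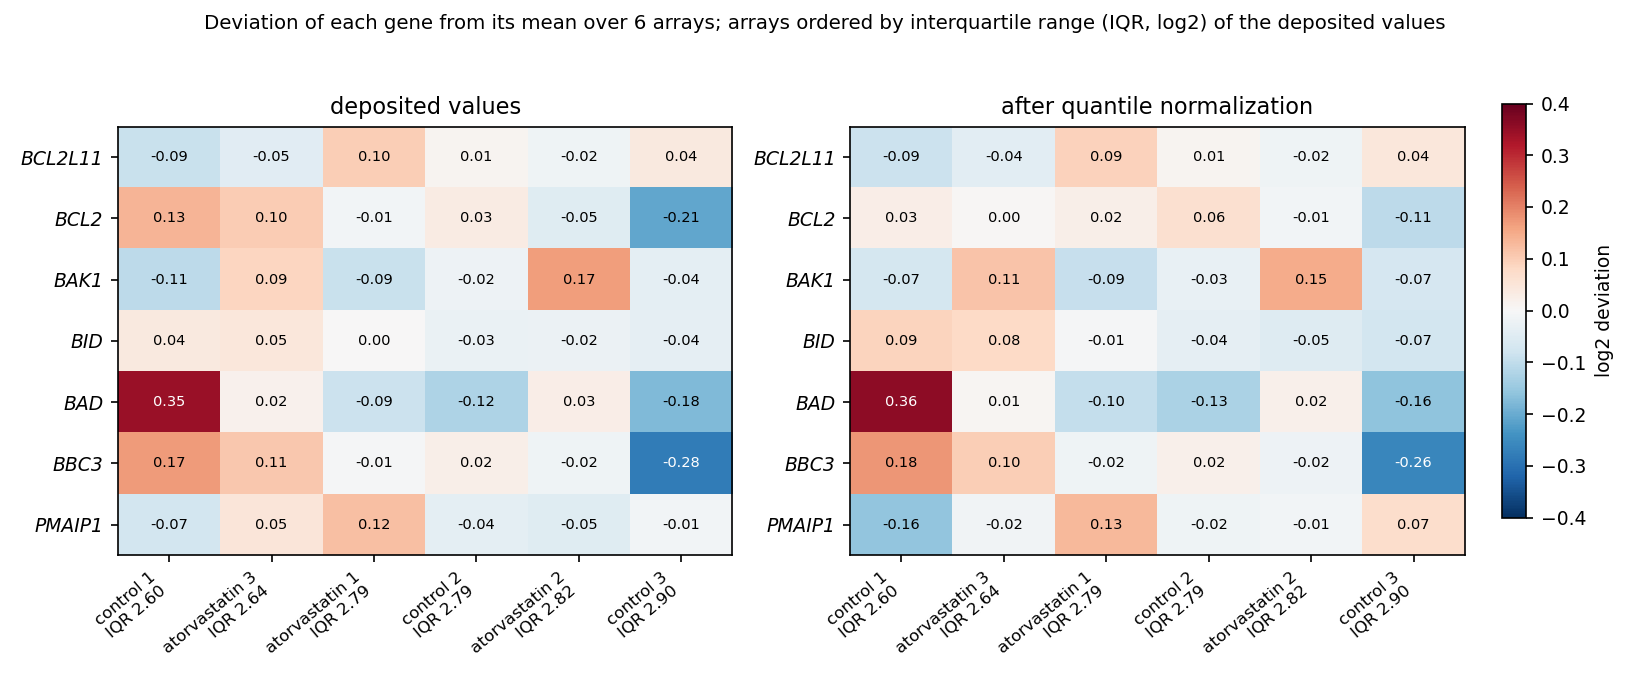
Log2 deviation of each family gene (rows) from its own mean over 6 arrays, for arrays ordered from the narrowest to the widest interquartile range (columns), as deposited (left) and after quantile normalization (right). The pattern of *BCL2* fades on the right, and those of *BAD*, *BBC3* and *BCL2L11* remain, with *BAD* at 0.35 and 0.36 on control replicate 1.

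Around the 10 genes, 5 further lists of the apoptosis pathway hold 64 genes, of which 44 had a cluster of their own, and 0 of the 44 were called by limma with the block (0% of all clusters). None had an unadjusted *p* under 0.05 with limma, with or without the block. With the methods' paired *t*-test 1 of the 44 had, beside 316 of 12797 clusters. With an unpaired *t*-test 1 had as well, beside 441 of 12797 clusters. Higher means were seen in 18 of the 44 genes and lower means in 26, against 55.8% higher over all clusters. The median log2 difference was −0.02, beside 0.01 over all clusters. The lists are described in turn by their genes with the smallest *p*.

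Of 13 other genes of the BCL2 family and its relatives, 8 were measured, 1 with a higher and 7 with a lower mean. *BNIP3*, a hypoxia-inducible gene of a mitochondrial protein with a BH3-like region, stood out by the size of its difference and by its spread. Its pooled SD of 0.358 exceeded that of 99.4% of tested clusters. *BNIP3* had 10.0, 10.3 and 10.7 in control and 10.4, 9.66 and 10.0 in treated cells. Treated replicates 2 and 3 were below every control array but treated replicate 1 was not, and the fold change was −1.25 (95% confidence interval of the log2 difference −0.83 to 0.18, limma with the block, adjusted *p* = 1). Without replicate 1 its log2 difference was −0.67 and passed (adjusted *p* = 0.0208 from limma), the 1 call among these lists in the fits run. That fit called 16 of 12797 clusters. With 1 residual degree of freedom it rests almost wholly on the spread shared by all genes, so the wide spread of *BNIP3* itself counts little. *BCL2L14* and *BMF*, the latter a BH3-only gene whose product is known to bind the myosin motor complex, had log2 differences of −0.06 and −0.04.

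Downstream of the mitochondria, 11 of 16 genes of caspases, the apoptosome and mitochondrial factors were measured, 6 higher and 5 lower. *AIFM1*, the gene of apoptosis-inducing factor, had a log2 difference of −0.12, *CASP10*, a caspase of death receptors, 0.11, and *CASP9*, the caspase that the apoptosome activates, 0.08. Their intervals all included 0, and the differences of the list ran from −0.12 to 0.11. The 5 measured genes of inhibitor of apoptosis proteins, which bind caspases or the signalling complexes of death receptors, all had lower means. Lower means were also seen in 5651 of 12797 clusters, and the median log2 difference of the 5 genes was −0.02. *BIRC2*, which encodes cIAP1, had 8.51, 8.53 and 8.55 in control and 8.45, 8.45 and 8.43 in treated cells. It was the only one of the 44 genes whose groups did not overlap. No overlap, in either direction, was seen in 7.25% of clusters, and treated below control in 2.68%. The difference of *BIRC2* was small: −1.06-fold (log2 difference −0.09, 95% confidence interval −0.31 to 0.13, limma with the block, adjusted *p* = 1). Its pooled SD was 0.0160, and only 0.336% of tested clusters had a smaller one. The width of its limma interval thus comes mostly from the spread shared by all clusters. The 1 gene of the 44 with an unadjusted *p* under 0.05 in the paired *t*-test was in this list of inhibitors. *XIAP*, the caspase inhibitor, had a log2 difference of −0.12 and *BIRC5* (survivin) of −0.02.

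Of 12 death receptor genes, 10 were measured, 6 higher and 4 lower. *TNFRSF10C*, a decoy receptor for TRAIL, had a log2 difference of 0.18 (−0.15 to 0.51) at a dim mean of 4.04. *TNFSF10*, which encodes TRAIL itself, had −0.14 (−0.40 to 0.12), and *FAS* had −0.10 (−0.37 to 0.17). Of 16 regulators of BH3-only genes and proteins, 10 were measured, 5 higher and 5 lower, and *FOXO3*, which encodes an activator of BH3-only genes, was among those not analysed here. *JUN* had a log2 difference of 0.10, *FOXO1* of 0.08 and *DYNLL2*, whose product is the dynein light chain that binds BMF, of 0.07. Control replicate 1 of *JUN* was at 7.41, and the other 5 arrays lay between 7.81 and 7.89.

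**Figure D4:**
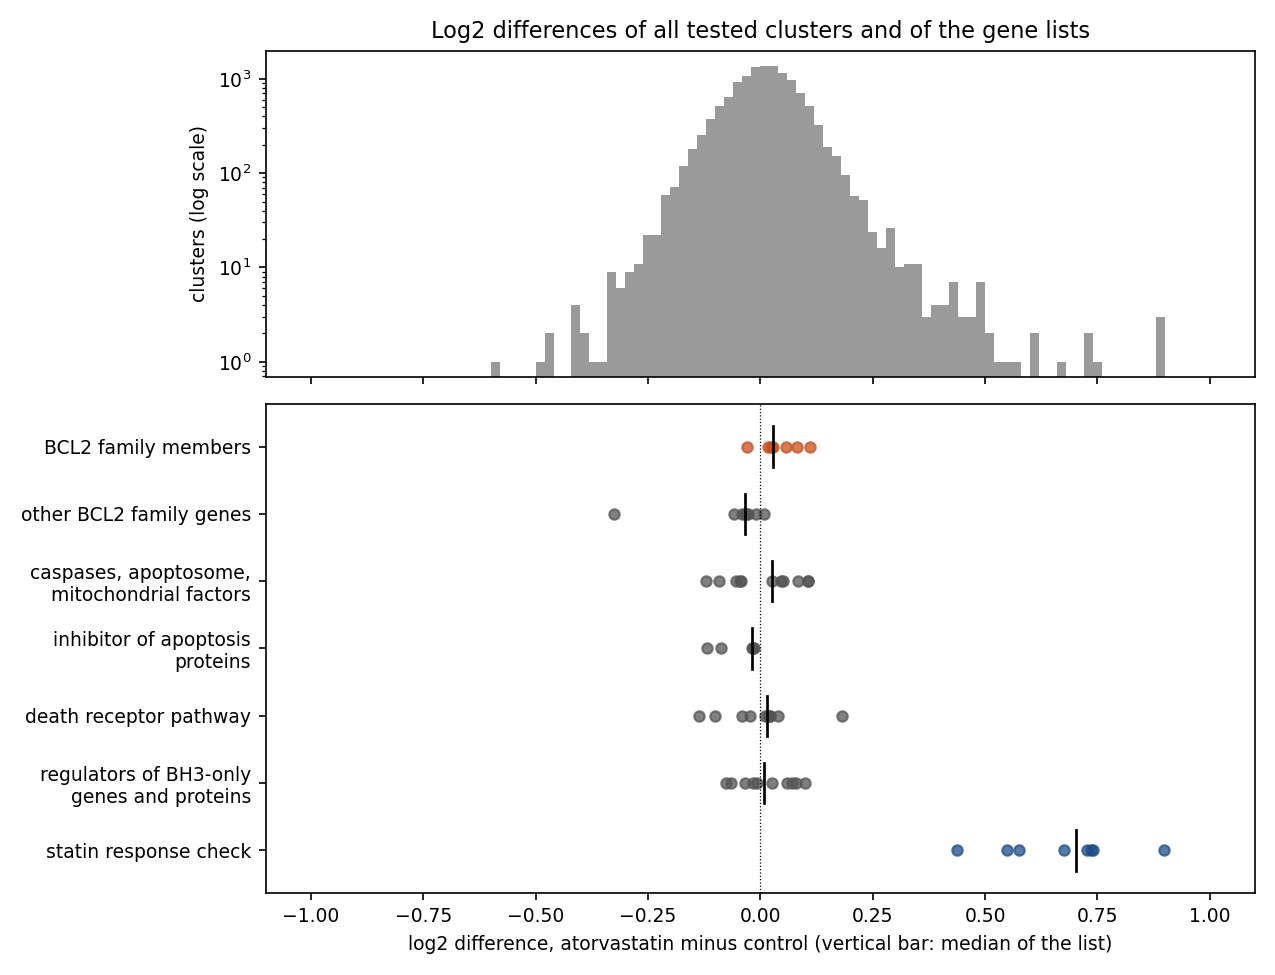
Histogram of the log2 differences of 12797 clusters (top, number of clusters on a log axis) and the differences of single genes in each list (bottom, points, with the list median as a bar). The family genes lie between −0.03 and 0.11, *BNIP3* at −0.32 is the lowest point of the apoptosis lists, and the 8 genes of the statin response check lie between 0.44 and 0.90.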

How the data were processed

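RNA of 6 HepG2 samples (3 control, 3 atorvastatin) was hybridized to GeneChip Human Exon 1.0 ST arrays. Per the methods, the authors used Partek Genomics Suite with RMA normalization and took the mean over a gene's core probe sets. Deposited data are on the log2 scale, 1 value per cluster and array. Versions are not given in the sources used here, and the labels name build hg18, so no coordinates are printed.

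Clusters were joined to the platform's annotation: 12797 of 16634 have exactly 1 symbol (12774 matched in the RefSeq gene table), 1934 have several and 1903 none here. Where a gene had several, the cluster with the highest mean was used. Differences were tested in limma 3.58.1 (R 4.3.3) with the replicate number as a block and Benjamini-Hochberg correction over all 12797 clusters (5%), which leaves 2 residual degrees of freedom. Fits were tested on simulated data. Exact permutation tests used scipy 1.17.1 in Python 3.11.15. The members and the gene lists were chosen with earlier results of these data known. The text names all 10 members and, of each further list, the 3 genes with the smallest *p*, the first of the statin check, and the 3 clusters closest to *BCL2L11*. Shared clusters are named outside this rule. The number of arrays limits the precision.

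The alternatives were no block, 2 *t*-tests, a trended and robust variance, a filter at a mean log2 value of 6, median centring, quantile normalization, every cluster, 1 cluster per gene, linear means, shared clusters, and each replicate or array left out. Quantile normalization without the block was chosen after seeing the data.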

Additional observations from a re-analysis of the deposited data

How the results depend on the processing

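No family gene passed the correction, or an unadjusted *p* under 0.05, under any of the 19 alternative fits. The count over all clusters was 0 in the fit with the replicate block, 4 with no replicate block, 21 with a trended and robust variance and 7 with quantile normalization and no replicate block, and it ranged from 0 to 32 when replicates or single arrays were left out (16 without replicate 1, 32 without replicate 3). In the other apoptosis lists the count was 0 and ranged from 0 to 1 in the same way, *BNIP3* without replicate 1 being the call. With 1 residual degree of freedom, fits without a replicate rest almost wholly on the spread shared by all genes. Arrays with the same number deviated together to an extent of *r* = −0.463, 0.0725 and −0.557, so no pairing by number was seen. These coefficients cannot decide whether wells were paired. The narrow arrays, control replicate 1 and treated replicate 3, carry different numbers, and array spread can lower the coefficients.

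Left-out replicates or arrays changed the sign of 5 family genes, and the cause was not tested. The log2 difference ranged from −0.058 to 0.079 for *BCL2L11*, −0.11 to 0.11 for *BCL2*, −0.11 to 0.17 for *BBC3*, −0.14 to 0.17 for *BAD* and −0.016 to 0.045 for *BID*. *BAK1* (0.05 to 0.18) and *PMAIP1* (0.02 to 0.13) kept theirs. The shared *BAD* cluster gave 0.048 in place of −0.030. Signs also changed for *BCL2L14* (−0.17 to 0.059), *BMF* (−0.11 to 0.024), *BIRC5* (−0.068 to 0.028), *FAS* (−0.19 to 0.019), *JUN* (−0.062 to 0.18), *DYNLL2* (−0.0073 to 0.13) and *FOXO1* (−0.041 to 0.18). Scaling and linear means changed no sign among the named genes.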

Other observations

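Clusters that carry a gene of the further apoptosis lists beside another gene cannot be assigned to either, and 9 of them are given here as values. The clusters that *USP9X* shares with *USP9Y* were left out. The cluster of *BCL2A1*, an anti-apoptotic gene, and *ST20* had a log2 value of 3.79 ± 0.177 (SD, n = 3) for control and 3.96 ± 0.142 (SD, n = 3) for atorvastatin, that of *BOK*, an effector gene, and *BOK-AS1* 8.64 ± 0.144 and 8.68 ± 0.0380, and that of *BCL2L12* and *IRF3* 6.10 ± 0.102 and 6.09 ± 0.136. The cluster of *HUWE1*, which encodes a ubiquitin ligase that marks MCL1 for degradation, and 2 microRNA genes had the smallest spread, with 9.56 ± 0.0116 and 9.55 ± 0.0205. *YWHAE* and *YWHAZ*, genes of 14-3-3 proteins that can hold phosphorylated BAD in the cytosol, share clusters with *PAFAH1B1* (10.6 ± 0.0814 and 10.5 ± 0.0935) and with *CASK* (7.86 ± 0.128 and 7.77 ± 0.0633). The clusters shared by *HTRA2* and *LOXL3*, *ENDOG* and *SPOUT1*, and *FAS* and *STAMBPL1* had log2 differences of 0.058, −0.022 and −0.026. None of these 9 clusters was called over all 16634 clusters (limma with the block, adjusted *p* = 1 for each).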
